A study of Caenorhabditis elegans with 4 samples.

Results

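The pharynx of Caenorhabditis elegans is the muscular feeding organ at the head of the gut, and 30 genes known from its muscle, glands, marginal and epithelial cells, lining cuticle and developmental regulators were followed in whole larvae of the first larval stage (L1). They were listed by name, for what is known of them, but with earlier results of these data known. Of the 30, 28 had a RefSeq accession in the deposited table, which matched 41614 genes in all. Above 0 in some library lay 27 of the 30, and 20613 of all genes. The genes tbx-2, a T-box regulator of pharyngeal muscle, and pqn-95 had no matched accession and were not analysed here, and eat-20, which encodes a Crumbs-related surface protein, was listed at 0 in each of the 4 libraries.

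Wild-type larvae were compared with dve-1(uf171) mutants, 2 libraries of total RNA each, every one from a pool of about 1200 larvae collected after synchronization. All strains were grown at 25 degrees Celsius on plates with Escherichia coli OP50, and the genotype labels read WT (titled as control) and DVE-1 mutant. The DVE-1 protein is a homeodomain regulator that acts when mitochondrial proteins misfold. Its transcript was present in every library, at 15.1 and 19.5 FPKM in wild-type larvae and 23.4 and 25.5 FPKM in mutants (FPKM, fragments per kilobase of transcript, scaled to all mapped fragments), and the labels do not state what uf171 changes in the gene. Separate cultures are not mentioned for libraries of one genotype, and p-values therefore reflect no more than how these samples vary, which may be technical variation. In whole animals, fewer cells of a type and less RNA per cell cannot be told apart.

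The pharynx pumps and grinds bacteria with its own muscle cells, which use myosin heavy chains and troponins different from most of those in the body wall. Gland cells empty secreted proteins into the lumen, among them the small PHAT proteins, named for their likeness to toxins. The lumen is lined by a chitin-containing cuticle that is shed and rebuilt at each moult together with the body cuticle. Proteins rich in glutamine, asparagine and cysteine, encoded by some abu and pqn genes, are known components of that lining. The FoxA factor PHA-4 specifies the organ, and HLH-6, a basic helix-loop-helix factor, is needed for its glands.

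Levels in FPKM are scaled by length and so can be set side by side between genes. Averaged over the 4 libraries, the troponin I gene tni-4 stood highest at 682 FPKM and the gland gene phat-1 lowest at 1.40 FPKM. All 6 muscle genes had a mean above 77 FPKM, while the 8 cuticle genes measured lay between 1.51 FPKM (pqn-54) and 27.2 FPKM (abu-14). Transcripts of pharyngeal muscle, glands, marginal cells and cuticle were thus all present, as were body wall muscle and intestinal transcripts, since whole animals were used.

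**Figure D1:**
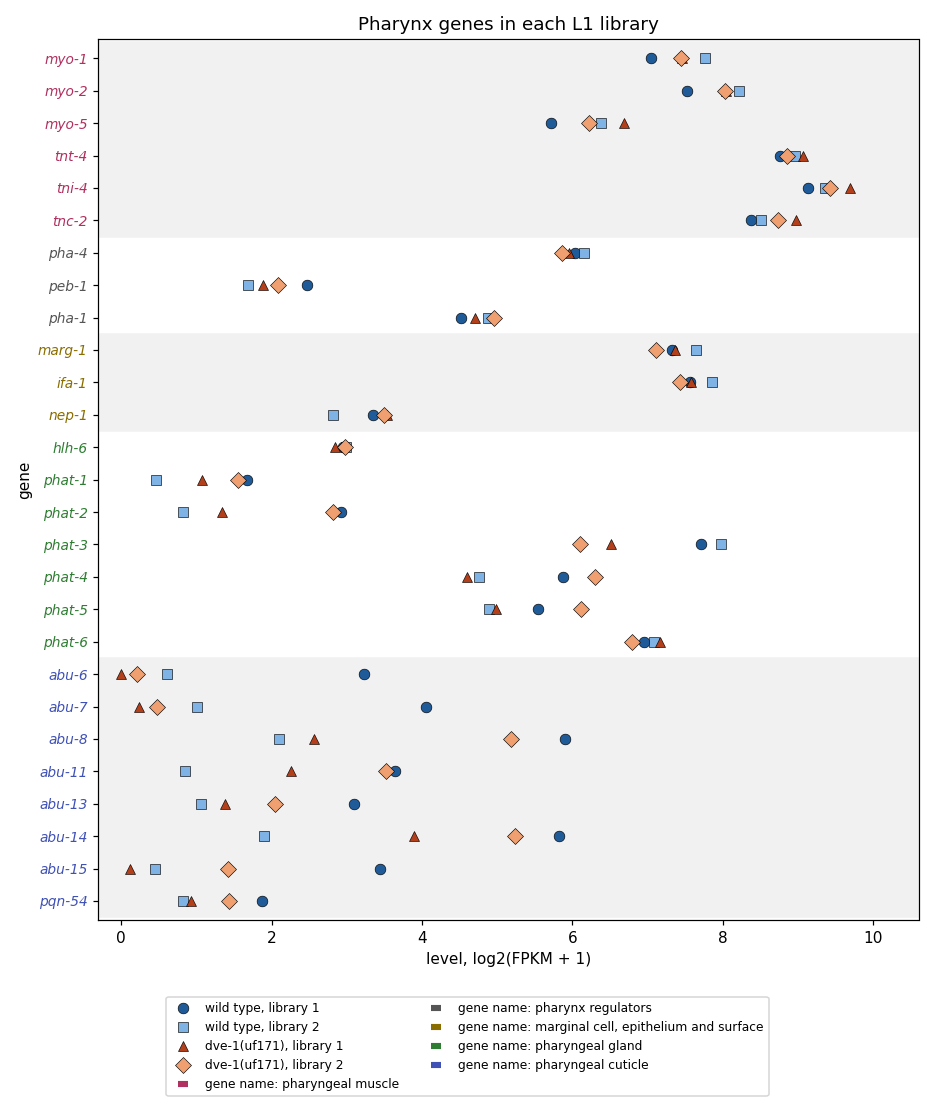
Level of each of the 27 pharynx genes above 0, as log2(FPKM + 1) on the horizontal axis, with 1 symbol per library (circle and square, wild type; triangle and diamond, dve-1(uf171)) and gene names coloured by role. The muscle symbols lie close together, and those of phat-3 fall into separate genotypes. The abu symbols spread widely in wild type and less in the mutant, where those of abu-6 and abu-7 lie close together.

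None of the 27 genes passed the test between genotypes (limma across the 15202 genes averaging 1 FPKM or more, Benjamini-Hochberg adjusted p under 0.05). Across all genes tested 1.66% passed (0.303% higher and 1.36% lower in the mutant), so that 0 of 27 is near the background, and 2 of the 27, phat-3 and tnc-2, had an unadjusted p under 0.05, against 11.9% of all genes. In 7 of the 27 the genotypes did not overlap, 3 with the mutant above and 4 with it below. Of all genes tested, 44.0% had genotypes that did not overlap, 28.1% with the mutant above and 15.9% with it below. Fold changes below are on the scale of log2(FPKM + 1), mutant over wild type. Their median over all genes tested was 0.09, and it became -0.01 when the libraries were rescaled by median ratios.

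**Figure D2:**
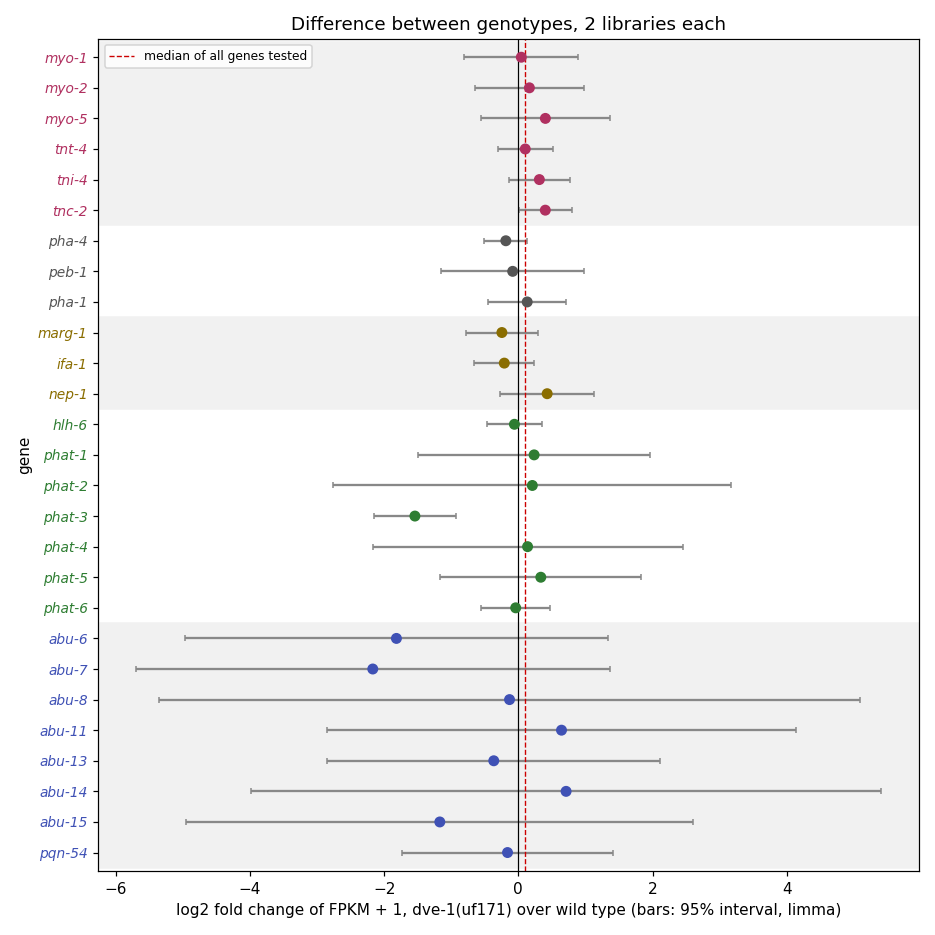
Log2 fold change of FPKM + 1, dve-1(uf171) over wild type, for the 27 pharynx genes, with 95% intervals from limma (2 libraries per genotype). The dashed line is the median of all genes tested, 0.09. The intervals of phat-3 (-2.15 to -0.93) and tnc-2 (0.01 to 0.79) lie on one side of 0, and the widest is that of abu-8 (-5.36 to 5.10).

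The clearest difference between genotypes lay in the glands, in phat-3 (chromosome V, 4043933 to 4044951, WBcel235). Wild-type larvae held 208 and 251 FPKM of it, whereas mutants held 90.02 and 67.4 FPKM. Every mutant value was below every wild-type value, and the gap was wider than the difference between libraries of a genotype. The means were 229.6 ± 30.05 and 78.7 ± 16.0 FPKM (SD, n = 2). The log2 fold change was -1.54 (SE 0.21, 95% interval -2.15 to -0.93), or 2.91-fold lower in the mutant. It missed the threshold over all genes tested with limma (adjusted p = 0.103). No other gland gene among the 7 was placed in this way.

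Of the remaining phat genes, phat-6 varied little. It measured 122 and 135 FPKM in wild-type larvae, compared with 142 and 109.9 FPKM in mutants, with overlapping genotypes and a log2 fold change of -0.04 (SE 0.17). The ratio of phat-3 to phat-6 within a library was 1.70 and 1.86 in wild-type larvae, against 0.634 and 0.613 in mutants. As phat-6 varied little, this ratio restates the phat-3 values and is no separate support.

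The genes phat-4 and phat-5 lie 7388 nt apart on chromosome V and had the same order of libraries within each genotype. The first measured 57.4 and 26.02 FPKM in wild-type larvae, compared with 23.3 and 77.7 FPKM in mutants. The second held 45.4 and 28.8 FPKM in wild-type larvae and 30.6 and 68.5 FPKM in mutants. Their genotypes overlapped, because the first wild-type and the second mutant libraries were high and the other 2 low. The pair phat-1 and phat-2, 673 nt apart on chromosome I, showed that order at low levels. There phat-1 measured 2.20 and 0.385 FPKM in wild-type larvae, compared with 1.10 and 1.93 FPKM in mutants. For phat-2 the levels were 6.61 and 0.763 FPKM, then 1.54 and 6.05 FPKM. Its exons overlap anr-10, with 0 and 0.976, then 1.81 and 4.21 FPKM, and the part of anr-10 in these values was not tested. Log2 fold changes of these 4 genes lay between 0.14 and 0.33, with standard errors of 0.51 to 1.00. The median over the 7 gland genes was 0.14, and it ranged from -0.37 to 0.66 with 1 library left out and was 0.02 after median-ratio scaling.

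Summed over phat-1 to phat-6, the libraries held 443 and 441 FPKM in wild type and 289 and 331 FPKM in the mutant. Without phat-3 the sums were 234 and 191 and 199 and 264 FPKM, so that the genotypes overlapped. The share of the sum in phat-3 was 47.1% and 56.8% in wild-type larvae, against 31.2% and 20.3% in mutants. That share rests on the same phat-3 values and is no separate support either. The regulator hlh-6 measured 6.72 and 6.96 FPKM in wild-type larvae, compared with 6.18 and 6.90 FPKM in mutants, a log2 fold change of -0.06 (SE 0.14, 95% interval -0.47 to 0.35).

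Neighbours of phat-3 were looked at after its values were seen. Of the 5 tested protein-coding genes on each side of it, 0 of 10 passed limma, against 1.66% of all genes tested. In 3 of the 10 both mutant values were above both wild-type values, against 28.1% of all genes. In 1 both were below, against 15.9% of all genes. That gene was phat-7, 1471 nt away and of the same gene name family. It measured 620 and 718 FPKM in wild-type larvae, compared with 415 and 397 FPKM in mutants, a log2 fold change of -0.72 (SE 0.12, adjusted p = 0.16 by limma). The other 9 had log2 fold changes of 0.21 to 0.74, and the median over the 10 was 0.47. The remaining gene of the name, phat-8 on chromosome II, measured 428 and 671 FPKM in wild-type larvae, compared with 916 and 424 FPKM in mutants, with overlapping genotypes. The copies of the phat family may share reads, and the labels do not say how such reads were assigned.

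The contractile genes of pharyngeal muscle varied within genotypes as well as between them, and 0 of 6 passed. Among the myosin heavy chains, myo-1 measured 131 and 217 FPKM in wild-type larvae, compared with 174 and 174 FPKM in mutants. The level of myo-2 came to 184 and 296 FPKM in wild-type larvae and to 262 and 260.1 FPKM in mutants. The third, myo-5, measured 51.4 and 82.4 FPKM in wild-type larvae, compared with 102 and 73.2 FPKM in mutants. In all 3 the genotypes overlapped, and the first wild-type library was the lowest of the 4. Log2 fold changes were 0.04 (SE 0.29), 0.16 (SE 0.27) and 0.40 (SE 0.33), with limma adjusted p of 0.97, 0.818 and 0.627.

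The ratio of myo-2 to myo-1 within a library was 1.40 and 1.36 in wild-type larvae, against 1.505 and 1.498 in mutants. The body wall myosins were low in the first wild-type library as well: its ratio to the second was 0.766 for unc-54 and 0.669 for myo-3, against 0.606, 0.621 and 0.623 for myo-1, myo-2 and myo-5. This library was lower for long transcripts in general. Its median ratio to the second was 1.05 over 3897 protein-coding genes with a longest transcript under 1000 nt and 0.846 over 56 genes of 6000 to 7000 nt, the class of these myosins. The part of transcript length in the myosin values was not tested.

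Troponin links calcium to contraction through its T, I and C subunits. The troponin T gene tnt-4 measured 430.6 and 495 FPKM in wild-type larvae, compared with 533 and 461 FPKM in mutants, with overlapping genotypes. The level of tni-4 (chromosome IV, 5204591 to 5207124) came to 560.3 and 655 FPKM in wild-type larvae and to 824 and 688 FPKM in mutants. The troponin C gene tnc-2 (chromosome II, 10466852 to 10468358) measured 332 and 364 FPKM in wild-type larvae, compared with 499 and 423 FPKM in mutants. Mutants stood above wild-type larvae in each library for tni-4 and tnc-2, by a narrow margin in the former.

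Log2 fold changes of tnt-4, tni-4 and tnc-2 were 0.10 (SE 0.14), 0.31 (SE 0.15) and 0.40 (SE 0.13), with limma adjusted p of 0.763, 0.544 and 0.414. Per unit of tnt-4, the level of tnc-2 was 0.771 and 0.735 in wild-type larvae, against 0.935 and 0.917 in mutants, and that of tni-4 was 1.30 and 1.32 and then 1.55 and 1.49. The genotypes did not overlap in either ratio, and these ratios were chosen after the values were seen. Per unit of tni-4, tnc-2 stood at 0.593 and 0.555 in wild-type larvae, against 0.605 and 0.615 in mutants. Exons of tnc-2 overlap clec-143 and those of tni-4 overlap Y59E9AL.36, at no more than 1.52 and 18.7 FPKM in any library. The part of these partners in the tnc-2 and tni-4 values was not tested.

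Over the 6 muscle genes the median log2 fold change was 0.24, against 0.09 over all genes tested. It was 0.12 after median-ratio scaling and 0.04 to 0.45 with 1 library left out. All 6 values were above 0, as were 60.7% of all genes tested, but those of myo-1 and tnt-4 turned to -0.08 and -0.02 after median-ratio scaling. The 14 body wall muscle genes tested had a median of -0.02, with 0 passing and values from -0.84 to 0.21. The lowest was that of mlc-1, named after its values were seen, with 1198 and 1327 FPKM in wild-type larvae and 698 and 709 FPKM in mutants (limma adjusted p = 0.0787). Their most abundant members, the myosin light chain genes mlc-2 and mlc-3, came to 2878 and 3166 FPKM (mlc-2) and 2126 and 2315 FPKM (mlc-3) in wild-type larvae. Mutants held 2724 and 2206 FPKM of mlc-2 and 2656 and 2059 FPKM of mlc-3. Whole animals do not show which muscle the transcripts of mlc-1, mlc-2 and mlc-3 came from. Of 8 tested genes for excitability and pumping of pharyngeal muscle, 0 passed and the median was 0.15. Their most abundant members were eat-6, which encodes a sodium pump subunit, with 498 and 583, then 507 and 598 FPKM (wild type, then mutant), and the glutamate-gated chloride channel gene avr-15, with 39.3 and 39.8, then 53.3 and 44.96 FPKM.

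**Figure D3:**
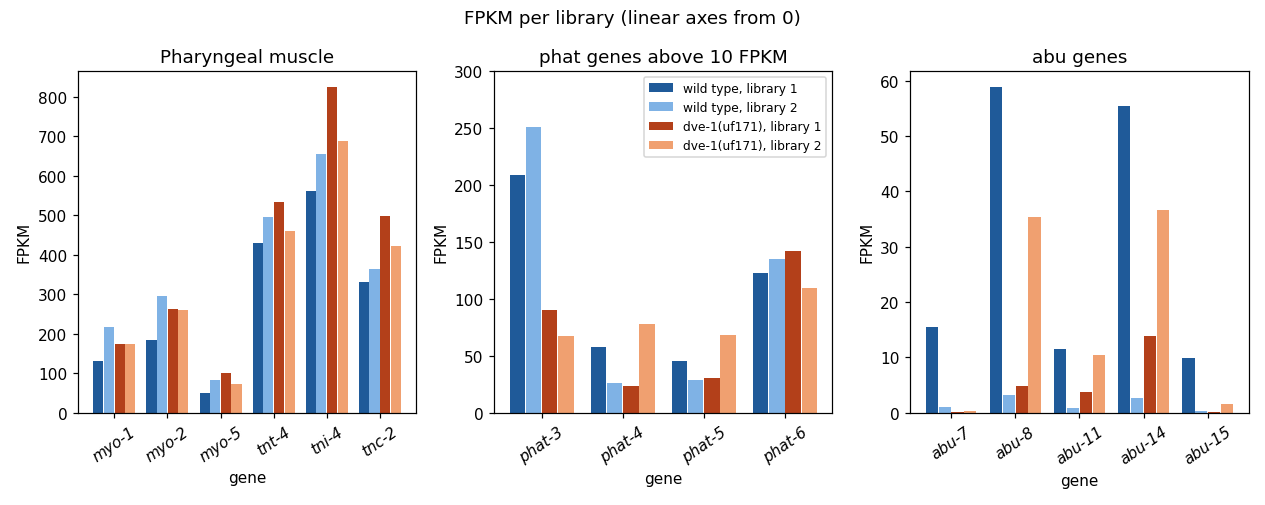
FPKM in each library for pharyngeal muscle genes, for the phat genes with a mean above 10 FPKM among phat-1 to phat-6, and for 5 abu genes, on linear axes from 0; each bar is 1 library. In phat-3 both wild-type bars (208 and 251) are above both mutant bars (90.02 and 67.4), and the tall abu-8 and abu-14 bars belong to 1 library of each genotype.

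Of the 3 regulators of the organ measured, 0 passed, and their median log2 fold change was -0.08. The level of pha-4 (chromosome V, 20753052 to 20760317) came to 64.2 and 70.05 FPKM in wild-type larvae and to 60.7 and 57.02 FPKM in mutants. Mutants stood below wild-type larvae in each library, by a log2 fold change of -0.19 (SE 0.11, adjusted p = 0.6 by limma). These levels are sums of 3 accessions, and 1 of them was listed at 7.54, 12.4, 13.1 and 0 FPKM. The highest accession alone, at 33.6 and 28.99 FPKM in wild-type larvae and 27.3 and 32.1 FPKM in mutants, overlapped and gave a log2 fold change of -0.07. The FLYWCH-type DNA-binding protein gene peb-1 measured 4.53 and 2.21 FPKM in wild-type larvae, compared with 2.70 and 3.26 FPKM in mutants. For pha-1, whose product is an antidote to the maternal toxin SUP-35, the values were 21.98 and 28.4 FPKM in wild-type larvae and 25.03 and 30.2 FPKM in mutants. Genotypes overlapped in peb-1 and pha-1. Of 5 further pharynx transcription factor genes, 0 passed and the median was -0.17. The most abundant were the homeobox genes ceh-34, with 32.7 and 33.3, then 36.97 and 32.01 FPKM (wild type, then mutant), and ceh-22, with 27.4 and 34.3, then 30.4 and 23.3 FPKM.

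Marginal cells alternate with the muscle around the lumen. Of 3 marginal, epithelial and surface genes measured, 0 passed, with a median log2 fold change of -0.21. The gene marg-1, named for these cells, measured 159 and 199 FPKM in wild-type larvae, compared with 164 and 137 FPKM in mutants. Its exons overlap F47B7.2, at 0 in every library, and F47B7.13, with 0 and 0, then 8.35 and 0 FPKM. The part of these partners in the marg-1 values was not tested. The intermediate filament gene ifa-1 measured 189 and 230.2 FPKM in wild-type larvae, compared with 189.9 and 171 FPKM in mutants. Genotypes overlapped in both, with log2 fold changes of -0.25 (SE 0.18) and -0.21 (SE 0.15). The ifa-1 signal moved between accessions from library to library. For example, 1 accession was listed at 107, 107, 65.1 and 0 FPKM and another at 81.3, 0, 92.3 and 171 FPKM, in the order wild type, then mutant. Taking the highest accession in each library turned its log2 fold change to 0.13. That accession was not the same in all 4 libraries, so this value compares different transcripts of the gene. The neprilysin-type peptidase gene nep-1 (chromosome II, 11654208 to 11657179) measured 9.22 and 6.05 FPKM in wild-type larvae, compared with 10.61 and 10.3 FPKM in mutants. There both mutant values were above, by a log2 fold change of 0.43 (SE 0.24, adjusted p = 0.578 by limma), which was 0.16 without the second wild-type library and 0.70 without the first.

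Genes of the pharyngeal cuticle lay far apart between the wild-type libraries, with the first at 3.43 times (pqn-54) to 27.1 times (abu-15) the FPKM of the second. The highest, abu-14 and abu-8, held 55.4 and 2.72 FPKM (abu-14) and 58.8 and 3.30 FPKM (abu-8) in wild-type larvae. Mutants held 13.9 and 36.7 FPKM of abu-14 and 4.90 and 35.3 FPKM of abu-8. Genotypes overlapped in both, since the first wild-type library and the second mutant library were high and the others low. The ratio of the first to the second wild-type library was 20.4 for abu-14 and 17.8 for abu-8, and that of the second to the first mutant library was 2.63 and 7.21.

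The others were lower, in the same order of libraries. The level of abu-11 came to 11.54 and 0.800 FPKM in wild-type larvae and to 3.78 and 10.5 FPKM in mutants, and that of abu-13 was 7.55 and 1.10 and then 1.61 and 3.13 FPKM. The prion-like gene pqn-54 measured 2.65 and 0.772 FPKM in wild-type larvae, compared with 0.913 and 1.71 FPKM in mutants. In 8 of 8 cuticle genes measured, the first wild-type library was above the second and the second mutant library above the first. Of all genes tested, 45.2% had the first of these orders, 41.8% the second and 21.6% both. In 4 of the 8 each of these differences was at least 2-fold on the log2(FPKM + 1) scale, against 1.85% of all genes. Exons of abu-13 overlap F57B9.3, with 13.5 and 14.8 FPKM in wild-type larvae but 2.03 and 1.32 FPKM in mutants, and its part in the abu-13 values was not tested.

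Genes of the body cuticle had the same order of libraries. Of 30 body cuticle and moulting genes tested, 27 had it in both genotypes, against 21.6% of all genes. In 20 of the 30 it came with at least 2-fold differences, against 1.85% of all genes. The cuticle gene cut-2 measured 192 and 10.05 FPKM in wild-type larvae, compared with 19.4 and 102 FPKM in mutants, while sqt-3, a collagen gene, measured 136 and 3.36, then 8.59 and 53.8 FPKM. Summed over the list, the libraries held 1162 and 108 FPKM in wild type and 152 and 574 FPKM in the mutant. Summed over the 8 pharyngeal cuticle genes, the values were 169.7 and 10.59 FPKM in wild type and 25.4 and 89.6 FPKM in the mutant. None of the 6 muscle genes had this order, and all 6 had the reverse, as did 29.0% of all genes, though the mutant libraries barely differed in myo-1 (174.4 and 173.7 FPKM) and myo-2 (262 and 260.1 FPKM). Among the gland genes phat-1, phat-2, phat-4 and phat-5 had the cuticle order and phat-3 and phat-6 the reverse. The median log2 fold change between genotypes over the 30 was -0.08, and 0 of them passed. That median turned with the libraries used, from -1.63 without the second wild-type library to 1.22 without the first, and was 0.02 and 0.03 with pseudocounts of 0.1 and 0.01. The part of the body cuticle pattern in the pharyngeal values was not tested.

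**Figure D4:**
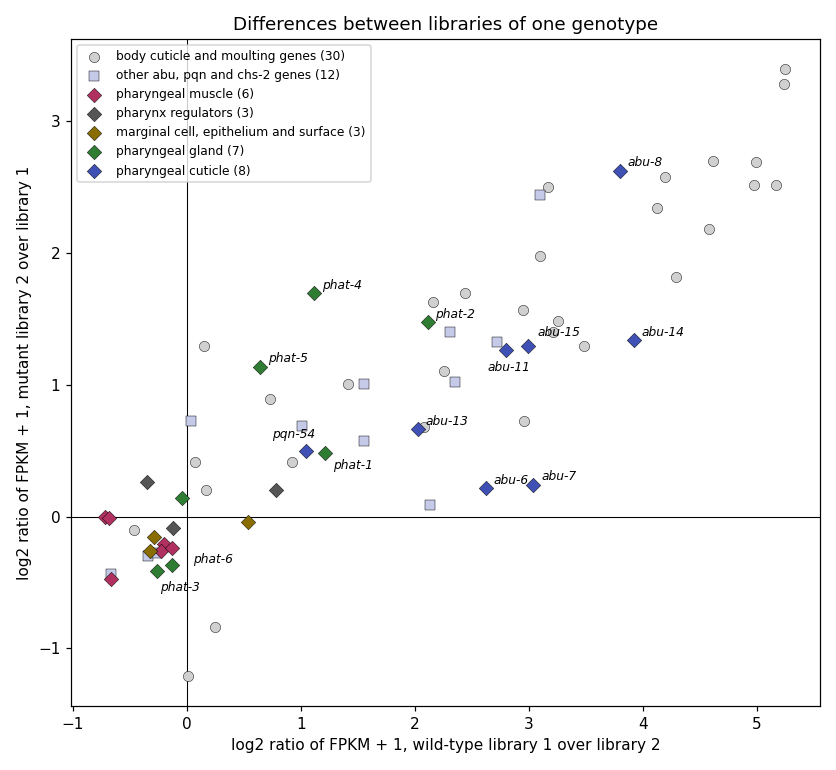
Log2 ratio of FPKM + 1 between the wild-type libraries (first over second, horizontal) and between the mutant libraries (second over first, vertical), 1 point per gene, coloured by role, with the number of genes in parentheses. The 8 pharyngeal cuticle genes lie at the upper right with most of the 30 body cuticle and moulting genes, and the 6 muscle genes lie at the lower left.

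With 1 library set against 1, the cuticle genes differed among themselves in how far the second mutant library came up to the first wild-type library. The level in the former was 91.1% of that in the latter for abu-11, 66.2% for abu-14, 64.3% for pqn-54, 60.1% for abu-8 and 41.5% for abu-13. It was 17.04% for abu-15, 2.54% for abu-7 and 1.90% for abu-6. These 3 genes lie side by side on chromosome V with gaps of 770 and 1377 nt (5158602 to 5164782), and abu-8 lies 28212 nt further on. Low shares were not limited to them: among the further abu and pqn genes, pqn-2 and abu-1, elsewhere on chromosome V, stood at 2.54% and 23.01%. However, abu-6, abu-7, abu-15, pqn-2 and abu-1 reached an average of 1 FPKM only through the first wild-type library. That library is also the base of the share, so their low shares follow in part from how they were selected and are no support.

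The values of abu-6, abu-7 and abu-15 were low in both mutant libraries, and also in the second wild-type library. The level of abu-6 was 8.41 and 0.530 FPKM in wild type, and it was listed at 0 and 0.159 FPKM in the mutant. For abu-7 the values were 15.6 and 1.02 FPKM in wild type and 0.182 and 0.394 FPKM in the mutant. For abu-15 they were 9.86 and 0.363 FPKM in wild type and 0.0906 and 1.68 FPKM in the mutant. In abu-6 and abu-7 each mutant library was below each wild-type library, while abu-15 overlapped. Within a library abu-8 stood at 3.78 and 3.25 times the level of abu-7 in wild type and at 26.96 and 89.6 times in the mutant. The mutant ratios divide by abu-7 levels of 0.182 and 0.394 FPKM, near the floor, and the pair was compared with its values known. Log2 fold changes were -1.82 (SE 1.06) for abu-6, -2.17 (SE 1.19) for abu-7 and -1.17 (SE 1.27) for abu-15, with limma adjusted p of 0.6, 0.578 and 0.699. Without the first wild-type library those of abu-6 and abu-7 were -0.51 and -0.65, and without the second they were -3.13 and -3.69 (limma adjusted p of 0.087 and 0.0837). With a pseudocount of 0.01 they were -5.69 and -3.84. The abu genes form a family of copies, and the labels do not say how reads shared between copies were counted.

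Over the 8 cuticle genes the median log2 fold change was -0.26, with single values from -2.17 to 0.71 and standard errors of 0.53 to 1.76. It ranged from -1.71 without the second wild-type library to 0.50 without the first. When genes averaging under 5 FPKM were left out, only abu-8, abu-11 and abu-14 remained. The median was then the abu-11 value, 0.64. A further list of 26 genes held abu and pqn genes, taken by family name, and the chitin synthase gene chs-2. Whether each of them belongs to the lining was not tested. Of the 26, 12 were tested between genotypes, 0 passed and the median was -0.16. In 9 of the 12 the libraries had the cuticle order, against 21.6% of all genes. Of these 9, pqn-71 held 71.1 and 7.43 FPKM in wild-type larvae and 14.3 and 81.7 FPKM in mutants. The most abundant of the 12, pqn-94 and pqn-31, did not have the cuticle order. Wild-type larvae held 1185 and 1426 FPKM of pqn-94 and 80.02 and 102 FPKM of pqn-31. Mutants held 1525 and 1261 FPKM of the former and 68.6 and 55.7 FPKM of the latter.

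Of 3 further gland genes tested, 0 passed, with a median log2 fold change of 0.09. The lysozyme gene lys-8 measured 233 and 290.1 FPKM in wild-type larvae, compared with 277 and 276 FPKM in mutants, while scl-3 came to 200.3 and 247, then 212 and 202 FPKM. Of 13 intestinal genes tested, with a median of -0.13, 1 passed, against 1.66% of all genes tested. It was the metallothionein gene mtl-2, which fell by 1.00 on the log2 scale (SE 0.09, limma adjusted p = 0.0458). Its adjusted p was 0.0953 to 0.157 with 1 library left out and 0.0367 to 0.321 over all alternatives.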

How the data were processed

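The tools TopHat2 and Cufflinks and the build ce11 are named, per the submitters' processing notes; their versions, strand use and the handling of reads aligning to several places are not stated. The authors deposited FPKM for 52491 RefSeq accessions in each library; 47645 matched the RefSeq gene table of WBcel235, the assembly of ce11, and were summed per gene. The 4846 others (20.9% to 21.7% of summed FPKM) were not used. Exon overlaps and lengths came from the Ensembl annotation of WBcel235. Depth is not known: summed FPKM were 2051173 to 2394188, and a common step among values under 0.3 FPKM was found only for the wild-type pair (365 of 1714 transcripts at 1 ratio, tolerance 0.0002), so no count test was run.

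The 15202 genes averaging 1 FPKM or more entered limma 3.58.1 (R 4.3.3, intensity trend) as log2(FPKM + 1), and p-values were adjusted over all of them by Benjamini-Hochberg; this scale understates changes of low genes. The test was also run on simulated data with independent noise in each gene. That check does not cover shifts shared by many genes of a library, as seen in the cuticle genes. Members and lists were chosen with earlier results of these data known. All 30 members were to be named; of 7 other lists, those past the threshold (up to 3 each way) or else the 2 most abundant. Others (unc-54, myo-3, pqn-71, pqn-2, abu-1, mlc-1, dve-1, phat-7, phat-8 and genes overlapping members) were named after their values were seen. Another 15 settings were tried, 1 of them (protein-coding genes only) chosen after seeing the data.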

Additional observations from a re-analysis of the deposited data

How the results depend on the processing

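With 2 libraries per genotype and wide spread in cuticle genes, differences under several-fold could not be resolved there, and depth is not known. None of the 27 pharynx genes passed limma under any of the 15 alternatives. Of 397 single values, 370 kept their direction and 27 changed it; 9 of the 27 genes kept it throughout, among them phat-3 (-1.75 to -1.34, adjusted p = 0.0699 to 0.457). The causes of the changes below were not tested.

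The count of genes passing was 252, and 105 when genes averaging under 5 FPKM were left out, 391 without the intensity trend, 165 among protein-coding genes, and 369 to 767 with 1 library left out; the lone library of a genotype is then assumed to vary like the others. With a replicate block it was 0 (1166 at an unadjusted p under 0.05). The libraries share only a number: deviations of same-numbered libraries, in 2 pairs, correlated at -0.056 across 15202 genes.

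Median-ratio scaling turned myo-1 (-0.078), tnt-4 (-0.020), ceh-34 (-0.060), eat-6 (-0.092), lys-8 (-0.035), pqn-94 (-0.030) and mlc-3 (-0.047); quantile normalization turned ceh-34 (-0.0018). Pseudocounts of 0.1 and 0.01 turned cut-2 (0.018 and 0.020) and 0.01 turned sqt-3 (0.0067). Taking the highest accession in each library, which for ifa-1 differed between libraries, turned ifa-1 and moved the median of the marginal, epithelial and surface genes (0.13 each).

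With 1 library left out, log2 fold changes that changed direction ranged as follows: myo-1 from -0.31 to 0.40, myo-2 from -0.18 to 0.51, tnt-4 from -0.0011 to 0.21, peb-1 from -0.48 to 0.31, pha-1 from -0.046 to 0.31, hlh-6 from -0.13 to 0.010, phat-1 from -0.37 to 0.84, phat-2 from -0.85 to 1.26, phat-4 from -0.71 to 0.99, phat-5 from -0.23 to 0.90 and phat-6 from -0.22 to 0.14. Those of the cuticle genes were abu-8 from -2.03 to 1.77, abu-11 from -0.76 to 2.04, abu-13 from -1.38 to 0.65, abu-14 from -1.25 to 2.67, abu-15 from -2.67 to 0.33 and pqn-54 from -0.68 to 0.36. Among other genes they were ceh-34 from -0.041 to 0.16, eat-6 from -0.087 to 0.15, lys-8 from -0.069 to 0.24, scl-3 from -0.25 to 0.049, pqn-94 from -0.044 to 0.23, mlc-3 from -0.11 to 0.26, cut-2 from -2.07 to 2.05, sqt-3 from -2.58 to 2.39 and phat-8 from -0.34 to 0.77. Some genes kept their direction but moved widely, myo-5 from 0.07 to 0.74, nep-1 from 0.16 to 0.70, abu-6 from -3.13 to -0.51 and abu-7 from -3.69 to -0.65.

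List medians with 1 library left out ranged from -1.71 to 0.50 for pharyngeal cuticle, -0.37 to 0.66 for gland, -0.14 to 0.02 for regulators, 0.04 to 0.45 for muscle and -0.35 to -0.07 for marginal, epithelial and surface genes. The other lists ranged from -0.33 to 0.09 (transcription factors), 0.05 to 0.23 (excitability), -0.07 to 0.21 (further gland), -0.71 to 0.43 (further abu and pqn genes and chs-2), -0.12 to 0.05 (body wall muscle), -1.63 to 1.22 (body cuticle) and -0.36 to 0.08 (intestine). After median-ratio scaling the further gland median turned to -0.04 and that of body wall muscle moved to -0.15.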
